A study of Hipposideros armiger and Mus musculus with 20 samples.

Results

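Cytosolic ribosome protein genes were followed through the fat depots of mice and bats kept warm or cold. A gene was taken when its symbol began with Rpl or Rps followed by a number (or by p for the stalk and a for Rpsa). Names holding -ps (pseudogenes), S6 kinase names beginning Rps6k and names ending in rt were left out, and at least 1 FPKM was required in 2 libraries of a species. FPKM, the unit of all levels here, is a fragment count divided by transcript length and by library size. The rule took 39 of the 14871 genes in the table, 28 named for the large subunit and 11 for the small. All 39 passed the filter in mouse and 32 passed in bat. Rpl24, Rpl31, Rpl32, Rpl36al, Rpl41, Rplp0 and Rps18 did not pass in bat and were left out there. In the mouse annotation 91 gene names fit the rule, so these 39 are a sample of the ribosome and not the whole particle. Among the names looked for and not analysed here were Rplp1, Rplp2, Rpsa, Rps6, Rpl3, Rps27, Rps27a and Rpl39.

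The mice were of the ICR strain, an outbred stock, and the bats were great roundleaf bats (Hipposideros armiger) given as wild type. Both were held at 30 °C or at 10 °C for 7 days. The depots were brown fat from between the shoulder blades (iBAT) and white fat from under the skin (sWAT) in both species, with white fat of the abdomen (aWAT) in the bat alone. Each of the 10 groups of depot and temperature held 1 female and 1 male library. The labels give no age and no animal number, and nothing says that libraries of different depots came from different animals, so p-values measure the spread between these samples only. Bat values are listed under mouse gene identifiers and several highly used messengers lie near 0 there, so levels were compared within a species only. The FPKM of all genes summed to between 263338 and 305098 per mouse library and to between 294103 and 358510 per bat library, and the number of reads behind them is unknown. The defining brown fat gene Ucp1 fitted the labels, with at least 49.95 FPKM in each mouse iBAT library and at most 1.528 in each warm mouse sWAT library, and the fat cell gene Adipoq was at 143.9 FPKM or more in all 20 libraries.

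The cytosolic ribosome reads messenger RNA on its small subunit and joins amino acids on its large subunit. Its proteins are needed in equal numbers, and their messengers are known for being made and translated together. Many of these messengers begin with a C followed by a run of pyrimidines, the terminal oligopyrimidine (TOP) tract. Through this tract the growth kinase complex mTORC1 controls how strongly they are translated. Brown fat that is activated by cold builds mitochondria, which carry a separate ribosome with proteins of its own.

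The tract was looked for at the annotated start of 1 coding transcript of each member, the principal one where the annotation ranks them. The motif counted was a C beginning within the first 6 bases and followed by at least 4 pyrimidines, on the strand of the transcript only. It was present in 6 of 39 members (15.4%), in 1495 of 13747 genes of the table with a transcript (10.9%) and in 1136 of 10286 genes that passed the filter in mouse (11.0%). Annotated starts need not be the starts used in these tissues, and a missing match says only that these letters are not in this window. The 4 members with the longest tracts are shown, 5′ to 3′, with the tract in capitals. The bases are the first 20 of the transcript in GENCODE M21 (mouse GRCm38), and the build behind the deposited table is not given in the sources used here.

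Rpl22 (chr4:152325853-152325872, plus strand): gCCCCCCTCCCTTTCTgcct

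Rpl32 (chr6:115808728-115808747, minus strand): CTTCCTTCTTCCTCggcgct

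Rps2 (chr17:24720110-24720129, plus strand): CTTCTTCTTCTTCgggagaa

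Rpl30 (chr15:34443203-34443222, minus strand): CCTTTCTCgctccccggcca

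The other 2 matches were Rpl31 and Rps18. Rpl32 was called lower in both cold mouse depots, while Rps2 and Rpl30 were called in neither. Of the 6 members with the motif, 1 fell in cold mouse iBAT, where 12 of all 39 members and 11.2% of all genes tested did. In cold mouse sWAT 3 of the 6 fell, against 25 of 39 members and 26.8% of all genes.

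The summed level of the members was highest in warm white fat and lowest in cold brown fat in mouse. They made up 3.78% (female) and 3.14% (male) of the summed FPKM in warm mouse sWAT and 1.83% and 0.969% in cold sWAT. In mouse iBAT they made up 1.28% and 1.01% in the warm and 0.475% and 0.465% in the cold. In both mouse depots the cold libraries lay below the warm libraries without overlap. The 39 genes summed to 9427 ± 1648 FPKM in warm sWAT and 4012 ± 1755 in cold sWAT (SD, n = 2), a ratio of 2.35. The sums in iBAT were 3294 ± 469 warm and 1418 ± 45.0 cold (SD, n = 2), a ratio of 2.32. Of 39 members, 37 had their highest group mean in warm sWAT and 35 had their lowest in cold iBAT.

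The bat libraries covered a narrower range. The 32 members made up 4.47% and 3.47% of the summed FPKM in warm aWAT and 2.24% and 2.61% in cold aWAT. In bat sWAT they made up 3.85% and 2.66% in the warm and 2.63% and 2.33% in the cold. In bat iBAT they made up 2.36% and 2.59% in the warm and 1.84% and 1.85% in the cold. Each cold pair lay below its warm pair, by a wide margin in aWAT and by little in sWAT, where the warm male and the cold female library were close. The warm sums exceeded the cold sums 1.48-fold in aWAT, 1.34-fold in sWAT and 1.25-fold in iBAT. Warm aWAT held the highest group mean for 27 of 32 members and cold iBAT the lowest for 20.

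**Figure D1:**
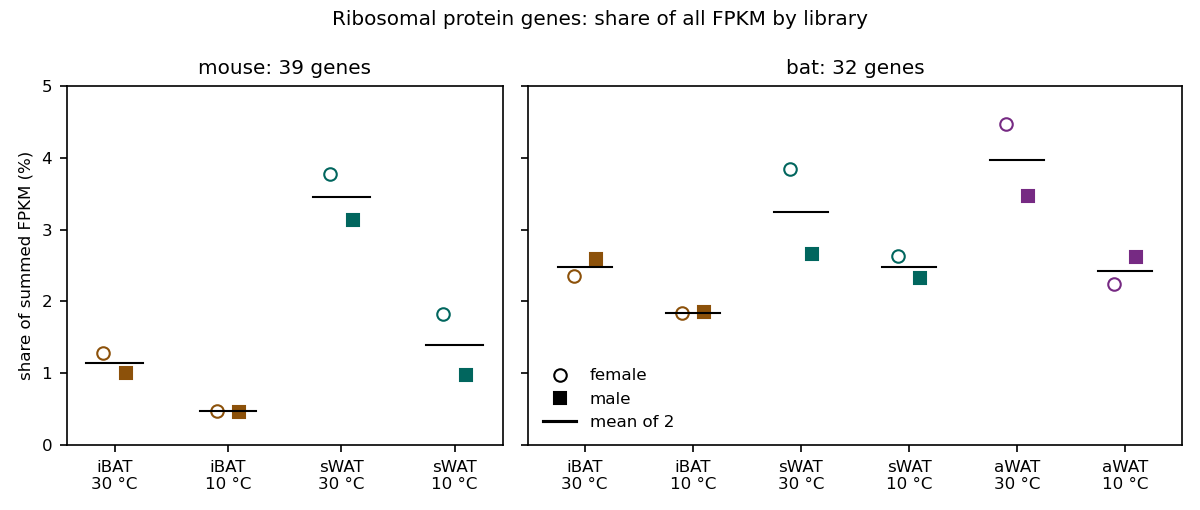
Share of the summed FPKM of each library that came from the ribosomal protein genes (vertical axis, percent), 39 genes in mouse and 32 in bat, by depot and temperature. Circles are female and squares male libraries, and lines are means of 2. Warm mouse sWAT lies at 3.14% and 3.78%, cold mouse iBAT at 0.465% and 0.475%.

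Members that are needed in equal numbers in the particle were far from equal in the table. In warm mouse sWAT their group means ran from 2.80 FPKM for Rpl36a to 1311 FPKM for Rpl41, which encodes the smallest ribosomal protein, a 468-fold range around a median of 45.4 FPKM. Rps9 and Rpl8 stood close to Rpl41, each at 1019 FPKM or more in both warm sWAT libraries. Rpl31, Rpl9, Rpl38 and Rpl36a lay at the low end, with at most 6.34 FPKM in any mouse library. In cold mouse iBAT the median over members was 7.87 FPKM, and 21 of 39 had group means under 10 FPKM.

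The mouse genome holds many processed copies of these genes, and 26 of the 39 members have annotated pseudogenes named after them, 107 in all. The 13 members without one had a median of 385 FPKM in warm sWAT (range 9.83 to 1311). The 19 with 1 to 4 such copies had a median of 45.4 FPKM (range 2.80 to 406), and the 7 with 5 or more had 11.9 FPKM (range 5.12 to 239). Across the 39 genes the number of copies so named and the level had a Spearman rho of -0.58. Copies annotated under other names were not counted. This is a description over genes of the same 2 libraries, and how reads that fit several places were counted is not given in the sources used here. Levels of single members are therefore uncertain in size, and the comparisons below are between libraries within a gene.

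**Figure D2:**
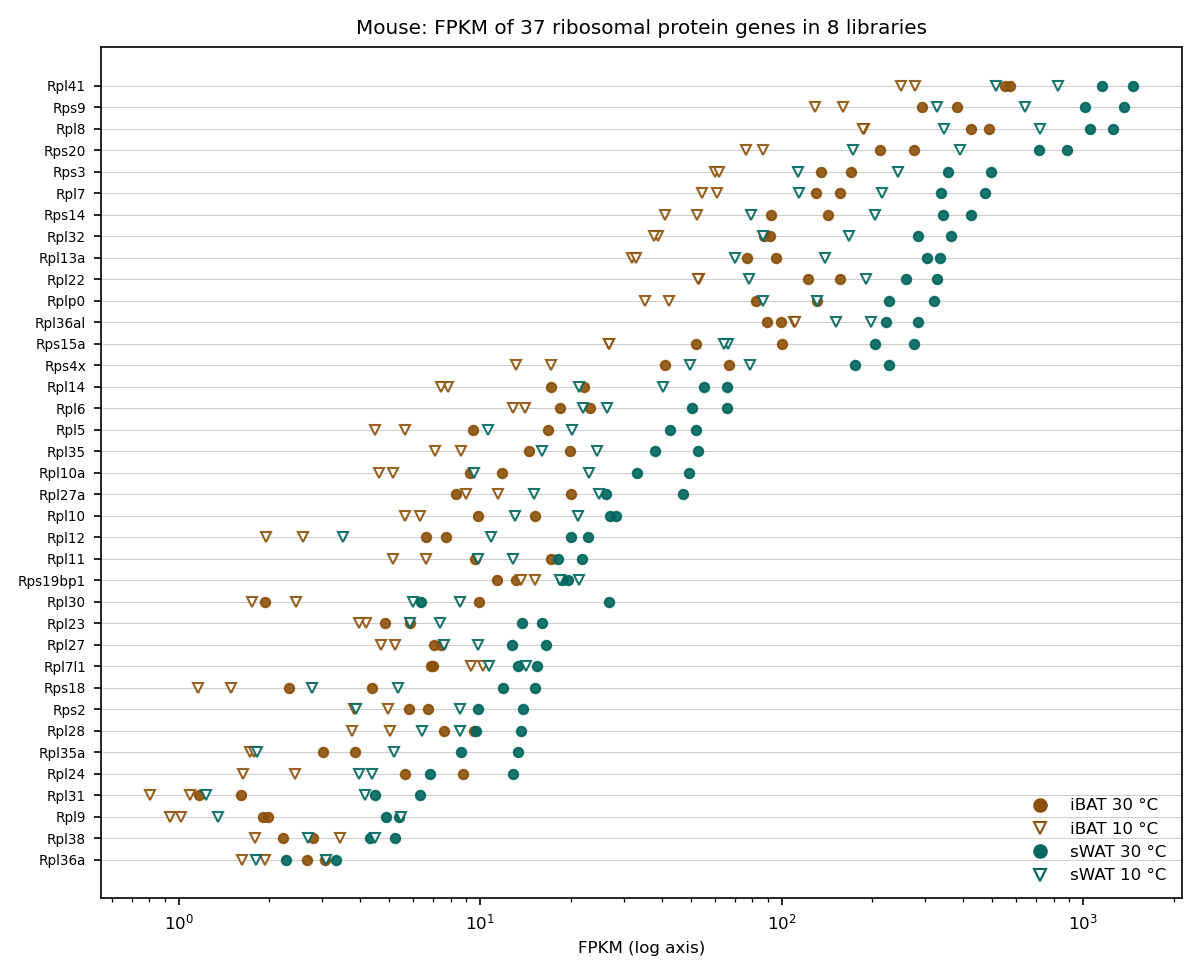
FPKM (horizontal log axis) of 37 of the 39 ribosomal protein genes in the 8 mouse libraries, 1 gene per row, ordered by their mean in warm sWAT. Filled circles are 30 °C and open triangles 10 °C, brown for iBAT and green for sWAT. Most rows run in the same order, from cold iBAT on the left to warm sWAT on the right, over a 468-fold range of levels in warm sWAT.

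Changes below are log2 ratios of FPKM + 1 ± standard error from limma, with 2 libraries per group. A member was called higher or lower at an adjusted p (Benjamini and Hochberg over all genes tested) under 0.05. All genes together moved with temperature as well, by a median of -0.30 in mouse iBAT and -0.37 in mouse sWAT. Printed changes are therefore given less this median, while tests and calls refer to the change without this shift.

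In brown fat of cold mice, ribosomal protein messengers were lower. Of 39 members 12 fell and none rose, against 11.2% of all 10689 genes called lower. The median over members was -0.73, against 0 for all genes by construction. For 33 of 39 members both cold libraries lay below both warm libraries, against 59.0% of all genes. Among the 12 were Rpl13a, Rpl14, Rpl24, Rpl32, Rpl41, Rpl7, Rplp0, Rps15a, Rps20 and Rps4x, and by subunit 7 of 28 large and 5 of 11 small names fell.

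Rps4x, the X-linked gene of a protein of the small subunit body (ENSMUSG00000031320, chrX:102184941-102189394), was at 67.1 and 41.1 FPKM in warm iBAT and at 17.2 and 13.2 in cold iBAT (female, male). Both cold libraries were far below both warm ones, and the change of -1.44 ± 0.32 was the lowest of the members there (adjusted p = 0.0222). Rps20, a protein of the small subunit head, was at 275 and 213 FPKM warm and at 87.0 and 76.1 cold (-1.26 ± 0.38, adjusted p = 0.0426). The groups of both genes did not overlap, and the warm female library was the highest in each.

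Among large subunit genes, Rplp0 encodes the base of the stalk that draws translation factors to the ribosome. It was at 131 and 82.0 FPKM in warm iBAT and at 42.3 and 35.3 in cold iBAT (-1.11 ± 0.31, adjusted p = 0.0349). Rpl13a, known also as part of an interferon-dependent translation silencer, was at 76.6 and 95.9 FPKM warm and at 31.9 and 33.0 cold (-1.08 ± 0.31, adjusted p = 0.0356). Cold values lay below warm values without overlap in both genes, and here the male library was the higher of the warm pair for Rpl13a. Rpl5 and Rpl11, which travel with 5S RNA and can bind the p53 regulator Mdm2, stood on either side of the threshold depending on the model. Rpl5 was at 16.9 and 9.50 FPKM warm and 5.64 and 4.47 cold (-0.89 ± 0.35, adjusted p = 0.0694). Rpl11 was at 17.2 and 9.61 warm and 6.60 and 5.15 cold (-0.73 ± 0.28, adjusted p = 0.0575). In both genes the warm female library stood well above the warm male, while the groups still did not overlap. With sex in the limma model both were called, with an adjusted p of 0.0186 for Rpl5 and 0.0463 for Rpl11. Over all alternatives run the adjusted p ran from 0.0186 to 0.318 for Rpl5 and from 0.0374 to 0.256 for Rpl11.

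Rpl7l1, Rps19bp1 and Rpl36al departed from the other members in cold mouse iBAT. Their cold libraries lay above their warm libraries, as did those of 13.6% of all genes and of no other member. Rpl7l1, a relative of Rpl7 that acts in ribosome assembly, was at 6.97 and 6.85 FPKM warm and at 10.2 and 9.36 cold (0.74 ± 0.17, adjusted p = 0.121). Rps19bp1, whose product binds Rps19 and the deacetylase Sirt1 and is no part of the mature particle, was at 13.1 and 11.4 warm and 15.2 and 13.6 cold (0.51 ± 0.14, adjusted p = 0.33). Both genes code for factors around the ribosome. The pairs of Rps19bp1 were separated by a small margin and those of Rpl7l1 by a wider one.

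Rpl36al, a close copy of Rpl36a that codes for nearly the same large subunit protein, was at 99.8 and 89.6 FPKM warm and at 110 and 110 cold (0.51 ± 0.20, adjusted p = 0.49). Reads of the 2 copies could be split between them, so their separate values are uncertain. As a share of the summed members of its library, Rpl36al went from 2.75% and 3.02% in warm iBAT to 7.57% and 7.97% in cold iBAT. In sWAT its share went from 2.68% and 2.68% to 3.78% and 5.46%. The share was thus larger in each cold library than in any warm library of the same depot, while Rpl36al itself was not called in either depot. Its level in sWAT moved the other way, from 284.2 and 221.5 FPKM warm to 198.5 and 151.4 cold, without overlap. There it was called lower in the cold with sex in the limma model (-0.16, adjusted p = 0.0436). It was also called lower with quantile normalization in limma (-0.96, adjusted p = 0.0294). Without the cold female library its change in sWAT was -0.26.

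The calls in iBAT depended on the libraries, the model and the scaling. With sex in the model 25 of 39 members fell, against 16.8% of all genes. Without any 1 of the 4 libraries no member was called, and no gene of the whole table was called lower. With median-ratio scaling 2 of 39 fell, against 3.56% of all genes, and Rpl7l1 and Rps19bp1 rose. The median over members stayed between -0.90 and -0.57 when 1 library was left out.

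In subcutaneous fat of cold mice, 25 of 39 members fell and none rose, against 26.8% of all genes called lower. The median over members was -0.84, and 33 of 39 had both cold libraries below both warm libraries (54.6% of all genes). By subunit, 16 of 28 large and 9 of 11 small subunit names fell. The members that did not pass were Rpl10, Rpl11, Rpl24, Rpl27a, Rpl28, Rpl30, Rpl31, Rpl36a, Rpl36al, Rpl38, Rpl7l1, Rpl9, Rps19bp1 and Rps2.

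Rps15a, which encodes a small subunit protein, was at 275 and 204 FPKM in warm sWAT and at 66.2 and 64.6 in cold sWAT. Its cold libraries were nearly equal and far below the warm ones, and its change of -1.47 ± 0.30 was the lowest of the members (adjusted p = 0.0143). Rpl13a went from 335 and 304 FPKM to 140 and 70.0 (-1.31 ± 0.31, adjusted p = 0.0179). Rps4x went from 228 and 176 to 78.7 and 49.6 (-1.30 ± 0.32, adjusted p = 0.0189). In these 2 genes the cold male library was clearly lower than the cold female, and in neither did the groups overlap.

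Rpl5 was at 52.1 and 42.7 FPKM in warm sWAT and at 20.2 and 10.6 in cold sWAT (-1.25 ± 0.35, adjusted p = 0.0232). Rpl12, which sits with Rplp0 at the base of the stalk, was at 22.7 and 20.0 warm and at 10.8 and 3.51 cold (-1.24 ± 0.41, adjusted p = 0.0308). Rps20 was at 884 and 714 warm and at 389 and 172 cold (-1.25 ± 0.38, adjusted p = 0.0264). The cold male library was lowest in each of the 3, and the warm female highest. Rps19bp1 was at 18.7 and 19.6 FPKM warm and 21.3 and 18.4 cold, with overlapping groups (0.41 ± 0.14, adjusted p = 0.817). Rpl7l1, at 15.5 and 13.4 warm and 14.3 and 10.7 cold, overlapped as well (0.16 ± 0.17, adjusted p = 0.374).

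The number of calls in sWAT, and the share of all genes called, also depended on single libraries. The members' median was -0.72 without the warm female, -1.02 without the warm male, -1.04 without the cold female and -0.57 without the cold male library. Median-ratio scaling gave 9 lower, against 6.64% of all genes, and 1 higher (Rps19bp1), and a fit to these 4 libraries alone called no gene of the whole table.

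**Figure D3:**
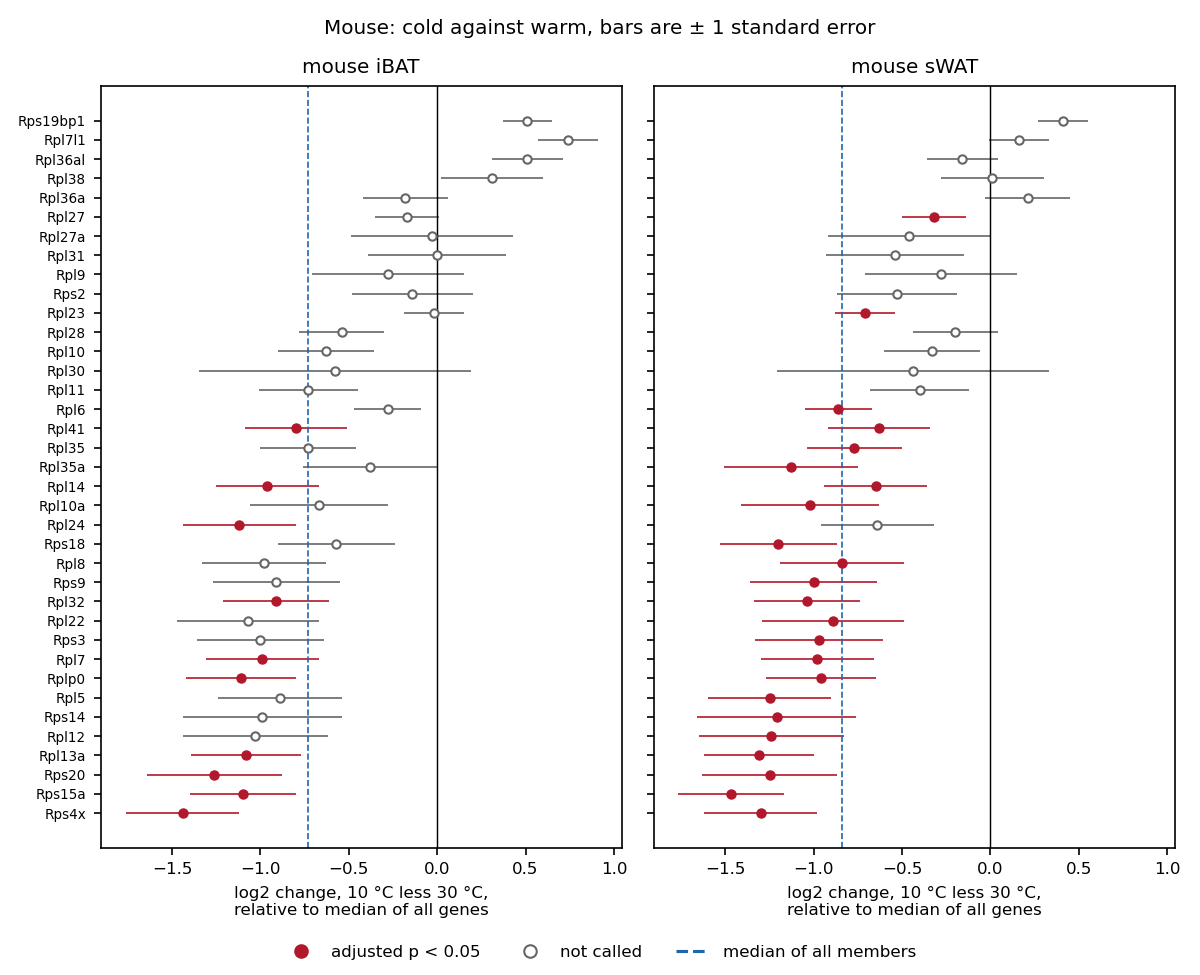
Log2 change from 30 °C to 10 °C of 37 of the 39 members in mouse iBAT (left) and sWAT (right), relative to the median of all genes, with bars of ± 1 standard error and 2 libraries per group. Filled points passed an adjusted p under 0.05, 10 of those drawn in iBAT and 23 in sWAT, and dashed lines are medians over all 39 members, -0.73 and -0.84.

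The difference between the cold changes of the mouse depots was tested as an interaction. No member differed in limma (4 of 39 at an unadjusted p under 0.05), and only 0.0936% of all genes did. The median difference over members, sWAT less iBAT, was -0.11. Its sign turned without the warm male iBAT library (0.03) and without the cold male sWAT library (0.20), and it ran down to -0.43 without the cold female sWAT library, where Rpl7l1 was called. The lower count of calls in iBAT is therefore not shown to be a smaller change.

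Some other cells' markers moved with the members in mouse sWAT, where 26.8% of all genes were called lower and 7.06% higher. In bulk tissue, fewer cells of a type and less RNA per cell cannot be told apart. Of 9 T lymphocyte markers 8 were lower in cold sWAT, and the list summed to 620 and 639 FPKM in the warm and to 176 and 6.24 in the cold. B lymphocyte markers (10 in the table, 3 called lower) summed to between 2473 and 12302 FPKM in the warm and to between 32.4 and 1288 in the cold. Cell division markers (6 of 6 lower) summed to between 39.9 and 59.6 FPKM warm and between 8.06 and 11.4 cold. Brown fat markers moved the opposite way, with 5 of 6 higher and sums of 20.4 and 26.7 FPKM in the warm against 2647 and 5313 in the cold. Skeletal muscle markers (6 in the table, 1 called higher) summed to at most 27.3 FPKM in the warm, to 17.8 in the cold female and to 1257 in the cold male library, the one with the lowest share of members in this depot. Macrophage markers summed to between 357 and 529 FPKM warm and between 225 and 322 cold. Endothelial markers did not fall, with sums between 162 and 200 warm and between 196 and 246 cold. Fibroblast and progenitor markers were nearly level, between 1320 and 1451 warm and between 1329 and 1477 cold. Fat cell markers differed within the warm pair, with sums between 1500 and 3579 warm and between 2815 and 3857 cold. Red cell markers summed to between 69.2 and 1106 warm and between 1276 and 1900 cold. Epithelial and mammary markers (2 in the table) summed to between 1.48 and 77.2 warm and between 0.107 and 42.0 cold. No marker of these lists was at 0 in a mouse sWAT library, and their part in the members' change there was not tested.

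In mouse iBAT the lymphocyte lists were low. Over all genes 11.2% were called lower there in the cold and 2.84% higher. T lymphocyte markers summed to 4.81 and 5.71 FPKM in the warm and to at most 1.88 in the cold, where 1 marker was at 0, and B lymphocyte markers ran from 16.6 to 193 warm and from 5.48 to 9.00 cold, where up to 2 were at 0. None of the 9 T and 10 B lymphocyte markers was called there in limma or had an unadjusted p under 0.05, and both sums were lower in the cold. Brown fat markers summed to 3105 and 2769 FPKM in warm iBAT and to 8288 and 9154 in cold iBAT, with 2 of 6 higher. Endothelial markers summed to between 244.8 and 266.5 warm and between 148 and 160 cold, with 3 of 8 lower. Skeletal muscle markers summed to between 1267 and 1555 FPKM in warm iBAT and between 24.3 and 721 in cold iBAT, with none of 6 called. Fibroblast and progenitor markers summed to between 294 and 324 warm and between 127 and 138 cold, with 4 of 8 lower. Macrophage markers summed to between 58.5 and 67.4 warm and between 33.3 and 34.2 cold, with 3 of 9 lower. Fat cell markers summed to between 2867 and 2988 warm and between 2035 and 2471 cold. Red cell markers ran from 90.9 to 7695 warm and from 1814 to 2406 cold. Their part in the members' change was not tested.

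In abdominal fat of cold bats some ribosomal protein messengers were lower. In aWAT 9 of 32 members fell and 1 rose, against 6.67% of all 11025 genes lower and 8.66% higher. The median over members was -0.48, and 25 of 32 had both cold libraries below both warm ones (35.1% of all genes). Among the 9 were Rpl10, Rpl10a, Rpl11, Rpl14, Rpl30, Rpl36a, Rpl8 and Rps2.

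Rpl11 was at 127 and 107 FPKM in warm aWAT and at 52.8 and 58.0 in cold aWAT. Its pairs were narrow and well apart (-0.92 ± 0.18, adjusted p = 0.00512). Rpl10, which is added late and is needed for the subunits to join, was at 120 and 93.1 warm and at 51.5 and 57.7 cold (-0.81 ± 0.25, adjusted p = 0.0306). Rps2, which helps to form the entry for messenger RNA, was at 12.3 and 19.4 warm and at 6.84 and 6.19 cold, and fell by 1.00 ± 0.34 on the log2 scale (adjusted p = 0.0479). The groups of these 3 genes did not overlap, and for Rps2 the warm male was the highest, unlike for Rpl11 and Rpl10.

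Rps19bp1 rose in cold bat aWAT, from 26.6 and 35.0 FPKM to 64.4 and 63.7 (1.18 ± 0.19, adjusted p = 0.007). Its cold libraries were nearly equal and about as high as in cold bat iBAT, where it was at 60.0 and 70.6 against 39.5 and 45.3 in the warm (0.71 ± 0.19, adjusted p = 0.132). Rpl9 had its cold libraries above its warm libraries in aWAT too, at 2.16 and 1.41 warm and 6.62 and 4.81 cold, but did not pass (1.41 ± 0.56, adjusted p = 0.146). Rpl9 was under 1 FPKM in 3 bat libraries, all of sWAT, and passed the filter through the other depots.

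The most abundant bat member was Rpl23, a large subunit protein at the face between the subunits. It was at 2668 and 1919 FPKM in warm aWAT and at 1478 and 1754 in cold aWAT (-0.35 ± 0.28, adjusted p = 0.255). Rps15a, next to it, was at 2311 and 1719 warm and at 1237 and 1281 cold (-0.53 ± 0.28, adjusted p = 0.131). The groups of both genes were separate, yet the warm libraries differed among themselves by more than the gap to the cold ones in Rpl23. The number of calls in aWAT, and the share of all genes called, depended on single libraries too. The members' median was -0.34 without the warm female, -0.62 without the warm male, -0.52 without the cold female and -0.45 without the cold male library. Brown fat markers moved with the members in the opposite direction there: 5 of 6 were higher, and the list summed to between 442 and 1026 FPKM warm and between 5483 and 9690 cold. Endothelial markers summed to between 184 and 220 FPKM warm and between 94.1 and 141 cold, with 3 of 8 lower. Fibroblast and progenitor markers summed to between 1279 and 2016 warm and between 620 and 1182 cold. T lymphocyte markers overlapped, with sums between 7.54 and 24.8 warm and between 3.29 and 8.73 cold. Their part in the members' change was not tested.

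In bat iBAT no member was called in limma (4 of 32 at an unadjusted p under 0.05), against 0.980% of all genes lower. The median over members was -0.15, and 20 of 32 had separate groups with the cold lower (33.1% of all genes). In bat sWAT no member was called either (1 of 32 at an unadjusted p under 0.05), against 0.0726% of all genes lower. Its median was -0.37, and 12 of 32 were separate with the cold lower (14.8% of all genes). Rpl5 had the lowest change in sWAT, with 849 FPKM in the warm female library and 340, 335 and 293 in the warm male, cold female and cold male libraries (-0.85 ± 0.40, adjusted p = 0.524). That change was thus set by a single high library. Rpl13a, at 365 and 247 warm and 268 and 236 cold, overlapped between temperatures in sWAT (-0.33 ± 0.23, adjusted p = 0.756). Skeletal muscle markers summed to between 1.86 and 10.3 FPKM in warm and between 233 and 442 in cold bat sWAT. Of these, 6 of 6 were called higher, against 0.943% of all genes. Macrophage markers went from between 246 and 334 to between 614 and 722 (none of 9 called), and their part in the members' values was not tested.

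**Figure D4:**
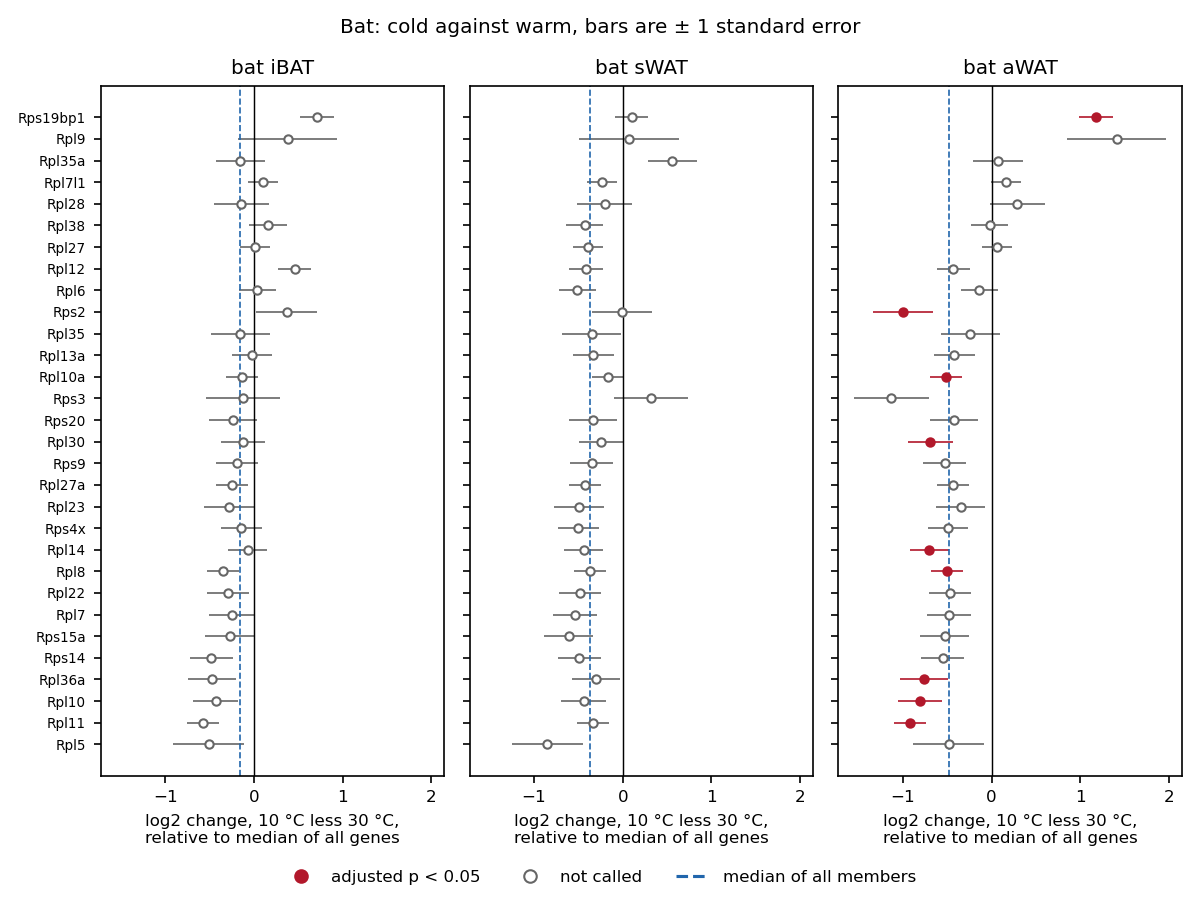
Log2 change from 30 °C to 10 °C of 30 of the 32 members measured in bat iBAT, sWAT and aWAT, relative to the median of all genes, with bars of ± 1 standard error and 2 libraries per group. Filled points passed an adjusted p under 0.05, which 9 of those drawn did in aWAT and none in iBAT or sWAT. Dashed lines are medians over all 32 members, -0.15, -0.37 and -0.48.

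The cold change in bat aWAT was compared with those in bat iBAT and sWAT by interaction in limma, and no member was called in either test. The changes in bat iBAT and sWAT were not compared with each other. For aWAT less iBAT 2 of 32 members had an unadjusted p under 0.05, and 0.336% of all genes were called. For aWAT less sWAT 4 of 32 did, and 4.41% of all genes were called. The median differences over members were -0.21 and -0.03, and the second took either sign with 1 library left out (from -0.27 to 0.13). With sex in the model 1 member was called higher for aWAT less sWAT, against 2.79% of all genes.

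The cold change was also compared between the species, over the 32 members measured in both. In iBAT 2 of 32 differed, against 4.86% of all 9400 genes: Rpl12 and Rps4x. Rpl12 was lower in cold than in warm mouse iBAT and higher in cold than in warm bat iBAT. The change of Rps4x was less negative in the bat. Rps4x was at 400 and 378 FPKM in warm and 319 and 340 in cold bat iBAT (-0.14 ± 0.23 against -1.44 ± 0.32 in mouse). In sWAT 5 of 32 differed, against 21.2% of all genes: Rpl10a, Rpl13a, Rpl35a, Rps15a and Rps4x. The change was less negative in the bat for all but Rpl35a, which was higher in cold than in warm bat sWAT. The count in sWAT was 13 with sex in the model, all higher, against 21.1% of all genes higher. It was 1 with median-ratio scaling, also higher, against 4.34% of all genes. The medians of the difference, bat less mouse, were 0.51 in iBAT and 0.43 in sWAT, and the members called were 6.25% and 15.6% of the 32. With 1 library left out the median lay between 0.39 and 0.68 in iBAT and between 0.15 and 0.79 in sWAT. The number of calls in sWAT depended on the library left out.

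Between depots, mouse brown fat held less ribosomal protein messenger than subcutaneous fat at both temperatures. At 30 °C 30 of 39 members were lower in iBAT and none higher, against 48.0% of all genes lower, with a median of -0.83. For 36 of 39 both iBAT libraries were below both sWAT libraries (65.7% of all genes). At 10 °C 23 of 39 were lower and none higher, against 27.6% of all genes, with a median of -0.77 and again 36 separate (64.0% of all genes). These comparisons use the same libraries as the cold comparisons above. Rps4x, at 67.1 and 41.1 FPKM in warm iBAT and 228 and 176 in warm sWAT, had a depot difference of -1.34 ± 0.32 (adjusted p = 0.00379). All 11 small subunit names lay lower in each warm iBAT library than in either warm sWAT library, 10 of them called. Rps19bp1 was called too, but its relative difference was -0.03 ± 0.14 (adjusted p = 0.0115) and changed sign with the pseudocount (0.04) and with median-ratio scaling (0.05).

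The depot calls at 10 °C, and the share of all genes called lower, depended on single libraries. The members' median was -0.74 without either cold iBAT library, -0.51 without the female cold sWAT library and -1.07 without the male. With median-ratio scaling 16 of 39 were lower at 30 °C, against 21.4% of all genes. At 10 °C 5 of 39 were lower with that scaling, against 9.36% of all genes. Lymphocyte markers differ between these depots by the sums given above, and their part in the depot difference was not tested.

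In the warm bat, ribosomal protein messengers were lower in iBAT than in aWAT. At 30 °C 12 of 32 were lower in iBAT than in aWAT and none higher, against 12.6% of all genes lower and 20.2% called in either direction. The median was -0.49, and 26 were separate with iBAT lower (40.3% of all genes). Among the 12 were Rpl10a, Rpl11, Rpl12, Rpl13a, Rpl14, Rpl27a, Rpl30, Rpl8, Rps2, Rps4x and Rps9. Rpl10a, known from work on ribosomes that favour certain messengers, was at 131 and 156 FPKM in warm iBAT and 287 and 250 in warm aWAT (-0.75 ± 0.18, adjusted p = 0.00767). With 1 library left out the number of calls was smaller, and the median lay between -0.61 and -0.4. At 10 °C none was called in limma between these depots (5 of 32 at an unadjusted p under 0.05), against 0.816% of all genes, and 24 were separate with iBAT lower (31.7% of all genes).

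Between bat iBAT and sWAT, 3 of 32 members were called at 30 °C, against 24.0% of all genes, and 4 at 10 °C, against 39.9%. Among them, Rpl30 was lower in iBAT at both temperatures, and Rpl11 was lower at 10 °C. With 1 library left out the members' median lay between -0.32 and -0.03 at 30 °C and between -0.03 and 0.07 at 10 °C. Rpl30 was at 125 and 106 FPKM in warm iBAT and 267 and 155 in warm sWAT (-0.75 ± 0.25, adjusted p = 0.0377). At each temperature the call in the other direction was Rpl9. It passed the filter through the depots in which it is higher, so its values are a description and its test is not used. It was at 11.3 and 5.50 FPKM in warm iBAT and 1.29 and 0.156 in warm sWAT, and at 19.8 and 4.67 in cold iBAT and 0.709 and 0.873 in cold sWAT. Rpl9 has 7 annotated mouse pseudogenes named after it, and its bat value is among the lowest of the members.

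Between bat aWAT and sWAT no member was called at 30 °C in limma (6 of 32 at an unadjusted p under 0.05), against 0.889% of all genes. The median was 0.29, and 14 were separate with aWAT higher (25.3% of all genes). At 10 °C the only call was Rpl9, at 6.62 and 4.81 FPKM in aWAT and 0.709 and 0.873 in sWAT, against 21.9% of all genes. Its test is not used here either, and with no filter on low values no member was called. The median was 0.24, with 14 separate with aWAT higher (26.8% of all genes), and turned to -0.17 with quantile normalization.

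Other genes of the translation apparatus were followed from fixed lists. Fau, which encodes a small subunit protein, and Rack1, a scaffold bound to the small subunit, have names outside the rule, and both were lower in both cold mouse depots. Rack1 went from 216 and 216 FPKM in warm to 73.0 and 78.5 in cold iBAT (-1.20 ± 0.35, adjusted p = 0.0373). Of 15 messengers of the list of other known TOP tract genes, Fau and Rack1 included, 10 fell in cold mouse iBAT (median -0.77, with 11.2% of all genes lower) and 13 in cold sWAT (median -0.64, with 26.8% lower), and none rose. In bat aWAT 5 of 11 fell (median -0.44, with 6.67% of all genes lower). Npm1, a nucleolar chaperone of ribosome assembly, went from 113 and 81.9 FPKM in warm to 36.9 and 16.1 in cold mouse sWAT (-1.57 ± 0.36, adjusted p = 0.0177). Of 20 initiation factors 6 fell and none rose in mouse iBAT, with a median of -0.25 and a range from -1.28 to 0.39. The lowest, Eif4b, went from 64.6 and 67.5 to 21.1 and 22.0 in mouse iBAT (-1.28 ± 0.20, adjusted p = 0.00949). Of 29 ribosome biogenesis genes 8 fell and 1 rose in mouse iBAT and 11 fell in sWAT, against 11.2% and 26.8% of all genes lower, and the median of -0.03 in each depot lay close to that of all genes.

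The mitochondrial ribosome, the closest comparison in function, rose in some depots where cytosolic members fell. Of its 57 genes 29 rose and none fell in cold mouse sWAT (median 0.90, with 7.06% of all genes higher), where 25 of 39 cytosolic members fell. In cold bat aWAT 42 of 57 rose and none fell (median 1.01, with 8.66% of all genes higher), where 9 of 32 cytosolic members fell. In cold mouse iBAT 9 of 57 rose and none fell (median 0.44, with 2.84% of all genes higher), and in cold bat iBAT 6 of 57 rose and none fell (median 0.50, with 1.22% higher). In cold bat sWAT none of 57 was called in limma, and none had an unadjusted p under 0.05. The median there was -0.15 with 38 of 57 below 0, on the same side as the -0.37 of the cytosolic members. Mrpl12, which also binds the mitochondrial RNA polymerase, went from 34.2 and 40.6 FPKM to 89.7 and 98.6 in mouse sWAT (1.68 ± 0.14, adjusted p = 0.00783). In the same libraries Rps15a went from 275 and 204 to 66.2 and 64.6. The difference between the lists was not tested.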

How the data were processed

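The authors deposited 1 table of FPKM values, checked here to be neither whole counts nor logarithms, and CASAVA 1.8 is named in the submitters' processing notes. Which aligner and build were used, and how reads of the bat came to be listed under mouse genes, is not given in the sources used here. No table of counts was used, so no counting intervals were computed. A gene name table matched 14723 Ensembl identifiers to symbols and left 148 without, and GENCODE M21 gave positions and transcripts. The members and all gene lists were chosen with earlier results of these data known. Values were taken as log2(FPKM + 1), which understates changes of low genes. Genes with at least 1 FPKM in 2 libraries of the species were fitted with limma 3.58.1 in R 4.3.3, with all libraries of the species, 1 mean per group, no sex term and a trended prior (two-sided). Differences between species used genes past the filter in both. A permutation test of 2 against 2 could not reach the threshold. The procedure was tested on simulated data. Members named are up to 6 higher and 6 lower per comparison, by largest change among those called with separate groups and a group mean of at least 5 FPKM. Rps4x, Rpl13a, Rplp0, Rpl22, Rpl5, Rpl11, Rpl36al, Rpl7l1 and Rps19bp1 are added always, and of other lists up to 4 genes per direction. Some members and list genes are not reported here by name, though counts, sums and medians include them, and some named by the rule were left out of the text, and genes named for their level, their share, their tract or for standing apart, and members listed among all called ones, were picked after their values were seen. Alternatives were another pseudocount, no filter, 3 other scalings, no trend, sex as a block, only the groups compared, and each library left out.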

Additional observations from a re-analysis of the deposited data

Results flagged for a closer look

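A test of the difference between bat and mouse in the cold change picked out 7 values, each given as the log2 change in bat less that in mouse, relative to the median of all genes. They were 6.25% of the members tested in iBAT, against 4.86% of all genes, and 15.6% in sWAT, against 21.2% of all genes. In iBAT they were 1.47 for Rpl12 and 1.29 for Rps4x. Rpl12 was at 5.23 and 3.46 FPKM in warm and 5.88 and 5.63 in cold bat iBAT, against 7.69 and 6.60 warm and 2.58 and 1.95 cold in mouse, so the pairs were separate in opposite directions. In sWAT they were 0.86 for Rpl10a, 1.00 for Rpl13a, 1.71 for Rpl35a, 0.87 for Rps15a and 0.81 for Rps4x. Rpl35a was at 1.83 and 2.10 FPKM in warm and 2.72 and 4.69 in cold bat sWAT, against 13.3 and 8.65 warm and 5.18 and 1.83 cold in mouse. The other 4 sWAT genes were lower in the cold on average in both species.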

How the results depend on the processing

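The members' median kept its sign in the 5 cold comparisons under all alternatives run, including each library left out, while the number called changed. The share of all genes called changed as well. In cold mouse iBAT 2.21% of all genes were lower with quantile normalization and 30.5% with only the groups compared. With each library left out in turn the count ran from 0 to 0 in mouse iBAT, from 0 to 30 in mouse sWAT and from 1 to 6 in bat aWAT. It ran from 15 to 30 for the mouse depots at 30 °C and from 0 to 33 at 10 °C. In the bat it ran from 1 to 3 for iBAT against sWAT at 30 °C and from 3 to 6 at 10 °C, from 2 to 9 for iBAT against aWAT at 30 °C, and from 0 to 2 for aWAT against sWAT at 10 °C. Differences in cold change ran from 0 to 1 for the mouse depots, for bat aWAT less sWAT and for the species in iBAT, and from 0 to 15 for the species in sWAT. With no filter the counts were 1 for cold in mouse iBAT, 16 in mouse sWAT, 6 in bat aWAT, 0 for bat aWAT against sWAT at 10 °C and 1 for the species in iBAT. With median-ratio scaling they were 4, 10 and 3 for cold in mouse iBAT, mouse sWAT and bat aWAT, and 16 and 5 for the mouse depots at 30 °C and 10 °C. They were 5 for bat iBAT against sWAT at 10 °C, where 3 higher and 2 lower turned the balance, 2 for bat aWAT against sWAT at 10 °C, and 1 and 1 for the species in iBAT and sWAT. With quantile normalization they were 2 in mouse iBAT (1 higher, 1 lower), 17 in bat aWAT, 6 for the mouse depots at 10 °C, 7 and 13 for bat iBAT against sWAT at 30 °C and 10 °C and 0 for the species in iBAT. Rescaled without the 10 highest genes they were 7 in mouse iBAT, 16 in bat aWAT, 6 and 12 for bat iBAT against sWAT at 30 °C and 10 °C, and 0 and 2 for the species in iBAT and sWAT. With a pseudocount of 0.1 the count for the species in sWAT was 2, and without the trend that in iBAT was 0. With sex as a replicate block the counts were 25 in mouse iBAT, 1 for bat aWAT less sWAT and 13 for the species in sWAT, and the block moved no other count by over 1.5 times. The labels name no animals, so the block is a sex term and not a pairing. With only the groups compared they were 28 in mouse iBAT, 0 in mouse sWAT, 4 in bat aWAT, 14 for the mouse depots at 10 °C, and 10 and 0 for the species in iBAT and sWAT. In bat iBAT against sWAT at 30 °C the balance of calls also turned without the warm female sWAT or warm male iBAT library. In bat aWAT against sWAT at 10 °C it turned without the cold female sWAT library. The only higher call of each comparison in the main fit was Rpl9, whose test is not used. Nothing is drawn from these turns. Among genes, Rps19bp1 in the mouse depots at 30 °C turned with a pseudocount of 0.1 (0.04), with median-ratio scaling (0.05) and without the male iBAT (0.01) or male sWAT library (0.01), in a range from -0.12 to 0.01 over the libraries left out. The cause was not tested in any of these. FPKM without read totals leaves the depth behind low members, such as Rpl31 and Rpl9, unknown.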

Other observations

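Sex was not a comparison of the design, with 1 female and 1 male library per group, and the following values were noticed in the data and carry no test. Of 39 members in mouse, 22 were higher in the female library in each of the 4 groups and none was higher in the male library in each. Over all 10689 genes, 22.4% were higher in the female library in each group and 4.59% in the male. In bat, Rpl35, a large subunit protein at the tunnel exit, was the only 1 of 32 members higher in the male library in each of the 6 groups. The difference ran from 0.23 to 0.78 on the log2 scale with a median of 0.47, and 4.63% of all 11025 genes did the same. In warm aWAT it was at 414 FPKM in the female and 574 in the male library, and in warm iBAT at 233 and 402.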
